A study of Mus musculus with 56 samples.

Results

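The genes of cytotoxic CD8 T cells were followed through the male reproductive tract of adult and aged mice. The group held 10 genes, Cd8a, Cd8b1, Gzma, Gzmb, Gzmk, Prf1, Nkg7, Ccl5, Cxcr6 and Eomes, which were chosen by name out of 53379 genes in the count table, of which 53274 have a symbol. RNA-seq libraries came from 7 regions, from the testis and its efferent ductules through the epididymis (initial segment, caput, corpus, cauda) to the vas deferens, of male C57BL/6 mice aged 3 or 21 months. There were 4 libraries for each region and age, 56 in all, and all mice were of the same strain with no treatment or engineered allele named in the labels. Each region was dissected whole after fat and connective tissue were trimmed, so a library holds the RNA of every cell type in that piece of tract, resident immune cells included. A lower count in such a bulk sample can mean fewer cells of a type or less RNA per cell, and these cannot be told apart here.

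Cytotoxic CD8 T cells recognise peptides presented by MHC class I molecules on other cells, with the CD8 co-receptor holding the contact, and kill the presenting cell by releasing granules. Perforin opens the membrane of the target and granzymes, a family of serine proteases, enter and start cell death. Resident populations of such cells are a known feature of the epididymal epithelium, where sperm appear only after immune tolerance is established, and in several organs of old mice Gzmk-positive CD8 T cells accumulate.

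The 10 genes fall into 4 roles. Cd8a (ENSMUSG00000053977, chr6:71373427-71379173, plus strand) and Cd8b1 (ENSMUSG00000053044, chr6:71322788-71337494, plus strand) encode the alpha and beta chains of the co-receptor and are neighbours on the chromosome. Granule contents are encoded by Gzma (ENSMUSG00000023132, chr13:113093825-113100981, minus strand), Gzmb (ENSMUSG00000015437, chr14:56258838-56262260, minus strand), Gzmk (ENSMUSG00000042385, chr13:113171608-113225908, minus strand) and the perforin gene Prf1 (ENSMUSG00000037202, chr10:61297833-61304680, plus strand), and Nkg7 (ENSMUSG00000004612, chr7:43437073-43438249, plus strand) encodes a granule membrane protein needed for degranulation. Ccl5 (ENSMUSG00000035042, chr11:83525778-83530518, minus strand) encodes a chemokine that activated T cells release, and Cxcr6 (ENSMUSG00000048521, chr9:123806475-123811760, plus strand) the chemokine receptor of many tissue-resident T cells. Eomes (ENSMUSG00000032446, chr9:118478212-118486132, plus strand) encodes a T-box transcription factor of effector and memory CD8 T cells and of natural killer (NK) cells. Coordinates are those of GRCm38 with the GENCODE M21 annotation, and each span covers the whole gene, exons and introns.

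Of the 10 genes, 8 had a promoter window in the RefSeq table used (GRCm38.p6, 250 bases before to 50 bases after the start), and those of Cd8b1 and Ccl5 were not analysed here. Windows are shown for the 4 of these genes whose level rose with age in the vas deferens, the region where most members moved together. The letters searched were TGTGGT, the core site of Runx factors, and GGTGTGA, the core of a T-box site, on both strands (as ACCACA and TCACACC on the reverse), and matches are in capitals.
Cd8a, chr6:71373177-71373476, plus strand: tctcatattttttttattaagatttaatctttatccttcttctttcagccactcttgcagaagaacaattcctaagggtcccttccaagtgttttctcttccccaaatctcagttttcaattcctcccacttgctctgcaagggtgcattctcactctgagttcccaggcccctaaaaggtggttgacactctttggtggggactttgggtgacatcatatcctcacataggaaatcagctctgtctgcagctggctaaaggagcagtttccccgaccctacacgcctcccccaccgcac
Gzmk, chr13:113180916-113181215, minus strand: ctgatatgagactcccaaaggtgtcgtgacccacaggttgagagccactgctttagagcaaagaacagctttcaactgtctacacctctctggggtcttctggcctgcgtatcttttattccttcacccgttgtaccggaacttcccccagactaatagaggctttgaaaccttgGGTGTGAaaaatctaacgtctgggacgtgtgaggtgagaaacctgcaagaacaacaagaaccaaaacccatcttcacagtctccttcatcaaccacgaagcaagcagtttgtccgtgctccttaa
Nkg7, chr7:43436888-43437187, plus strand: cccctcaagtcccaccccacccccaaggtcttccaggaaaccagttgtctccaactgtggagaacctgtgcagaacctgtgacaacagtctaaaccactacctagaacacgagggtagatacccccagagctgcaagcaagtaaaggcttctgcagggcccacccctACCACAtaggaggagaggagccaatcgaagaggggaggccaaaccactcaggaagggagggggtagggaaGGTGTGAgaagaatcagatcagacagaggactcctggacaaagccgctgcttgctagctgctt
Eomes, chr9:118477939-118478238, plus strand: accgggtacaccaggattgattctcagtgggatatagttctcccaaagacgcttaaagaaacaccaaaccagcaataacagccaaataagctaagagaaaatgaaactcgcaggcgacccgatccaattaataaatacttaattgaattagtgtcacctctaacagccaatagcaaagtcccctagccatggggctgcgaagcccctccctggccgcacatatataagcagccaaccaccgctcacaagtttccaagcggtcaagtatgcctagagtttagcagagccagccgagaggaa
The T-box letters stood in the windows of Nkg7 and Gzmk, 2 of the 8, and in 3.98% of the 32851 windows in the table. The Runx letters stood in 5 of the 8, those of Nkg7, Cxcr6, Prf1, Gzma and Gzmb, and in 16.8% of all windows. None of these matches overlapped a match to the other motif, and the windows of Cd8a and Eomes held neither. A match describes the letters only. The RefSeq start of Gzmk, on which its window is placed, lies within the annotated span, 44943 bases from its upstream end, while for the other 7 genes the distance was 0 to 74 bases.

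Depth sets how far such scarce transcripts can be read. Libraries held 11125279 to 20561967 counts, with a median of 16384049, so 1 count in a median library corresponded to 0.0610 CPM, the count rescaled to a common library size. The 6 genes used to check the region labels (Prm2, Aqp1, Adam28, Teddm1b, Spint3 and Akr1b7) had their highest group mean in their own region at both ages, in 12 of 12 comparisons. This check had no gene for the cauda and could not find a single mixed library. The study itself had picked Prm2, Adam28, Teddm1b and Spint3 as region-specific in these data. The 6 genes were not free of age effects, with 4 rises and 4 falls called among 42 combinations of gene and region. The noncoding gene Gm42418 took 49.7% of the counts of caput 3 months replicate 2 and 36.0% in the next library, corpus 21 months replicate 3. In the cauda, replicate 3 of 3 months stood apart from the other 3 libraries of its group. Its macrophage list (9 genes) summed to 3776 CPM where the lowest of the group had 460, and member values that rest on this library are also given without it. In the aged vas deferens, replicate 4 was the highest of its group for 9 of the 10 members (all but Cxcr6), which summed to 34.2 CPM in it and to 21.6, 13.2 and 14.6 in replicates 1 to 3. In the same order of replicates 4, 1, 2 and 3, the T cell receptor list summed to 84.2, 55.1, 34.2 and 34.0 CPM, the lymph node stroma list to 82.8, 26.9, 16.4 and 17.7, the red blood cell list to 9.30, 82.5, 124.6 and 45.5, and the 6 region genes to 10410, 17140, 16590 and 16610. The part of this library's make-up in its member levels was not tested, and without it the same 6 members were called. No member count exceeded 144 in any library, and Gzmk was at 0 in 22 of the 56. Per kilobase of exon, the mean level over the 56 libraries was highest for Ccl5 at 1.40 CPM per kb, followed by Nkg7 at 0.789, Cxcr6 at 0.599, Cd8b1 at 0.534 and Gzmb at 0.496. Gzma (0.285), Cd8a (0.278), Eomes (0.135), Gzmk (0.112) and Prf1 (0.106) were lower. This order changed with the region, since in the young testis Cd8b1 was at 1.36 CPM per kb and Ccl5 at 0.495, and in the aged caput Gzmb was at 1.62 and Ccl5 at 1.37. All other CPM values below are scaled by TMM over the 56 libraries and not by gene length. They are given per gene or summed over a list, and no gene's CPM is compared with that of another.

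**Figure D1:**
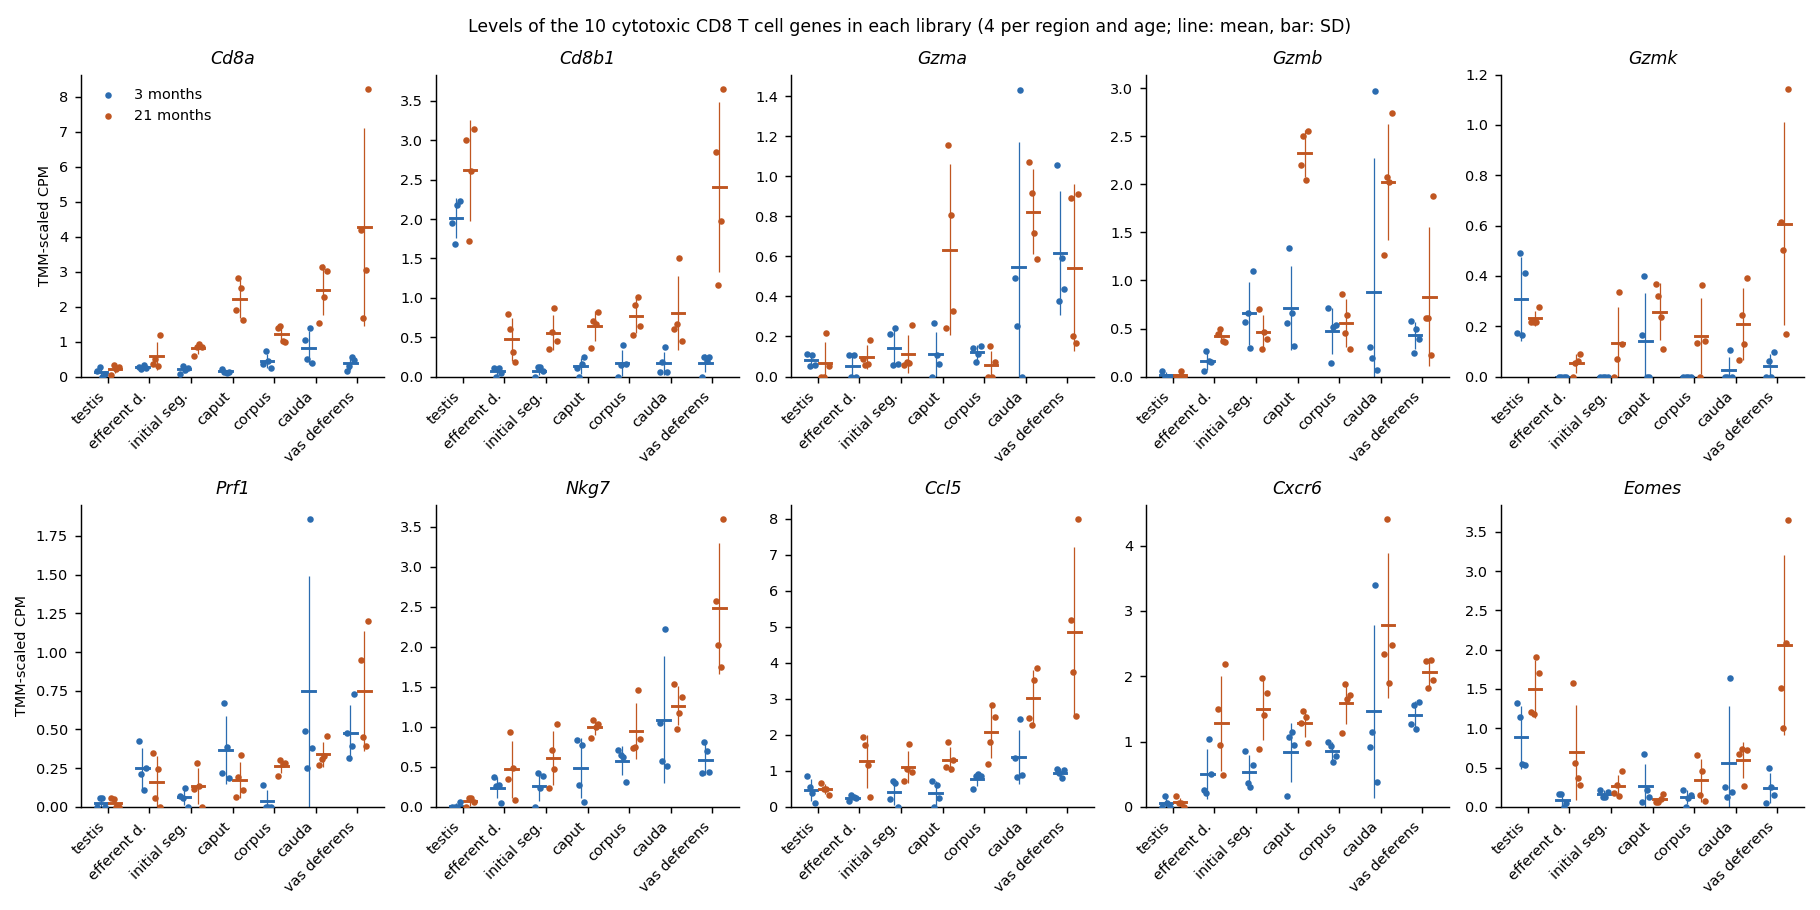
TMM-scaled CPM (y axis, from 0) of each of the 10 genes in the 56 libraries, by region (x axis) and age (3 months in blue, 21 months in orange), with points for libraries, lines for means and vertical bars for the SD (n = 4). Mean levels of both co-receptor genes were higher at 21 months in all 7 regions, Cd8b1 was high in the testis at both ages, and replicate 3 of the cauda at 3 months was the highest of its group for all 10 genes.

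To determine which of these genes changed with age, the 4 libraries of each age were compared in each region with edgeR, and a change was called at a Benjamini-Hochberg adjusted p under 0.05 over all genes tested in the region. Of 70 combinations of gene and region, 8 had fewer than 10 counts in all and were not tested. A rise was called in 15 of the 70, while 3.31% of all tests over the 7 regions were calls of a rise. No fall of a member was called by edgeR or by DESeq2, and none had an unadjusted p under 0.05 (0, 0 and 0 of the 70). Among all tests over the 7 regions, 2.96% were calls of a fall by edgeR. The vas deferens held 6 of the 15 rises (Cd8a, Cd8b1, Gzmk, Nkg7, Ccl5 and Eomes), where 11.4% of genes rose. The caput held 3 (Cd8a, Cd8b1 and Gzmb; 3.09% of genes), the initial segment 3 (Cd8a, Cd8b1 and Cxcr6; 3.35%), the efferent ductules 2 (Cd8b1 and Ccl5; 4% of genes) and the corpus 1 (Ccl5; 1.5%). In the cauda 0 members were called (0.07% of genes), with 4 at an unadjusted p under 0.05 (4.56% of genes) and 1 by DESeq2 (0.74%). In the testis 0 were called (0.353% of genes), with 1 at an unadjusted p under 0.05 (5.39% of genes) and 0 by DESeq2 (0.396%). With the study's thresholds, an unadjusted p under 0.05 and at least a 1.5-fold change, applied here to the edgeR fit and not to DESeq2 as the study did, 31 of the 70 passed as higher, where 5.36% of all tests did. All 4 aged libraries lay above all 4 young ones for 7 of the 10 members in the vas deferens (15.3% of genes), 6 in the corpus (4.44%), 5 in the caput (8.62%), 3 in the initial segment (3.92%), 3 in the efferent ductules (5.46%), 2 in the cauda (3.08%) and 0 in the testis (3.13%).

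**Figure D2:**
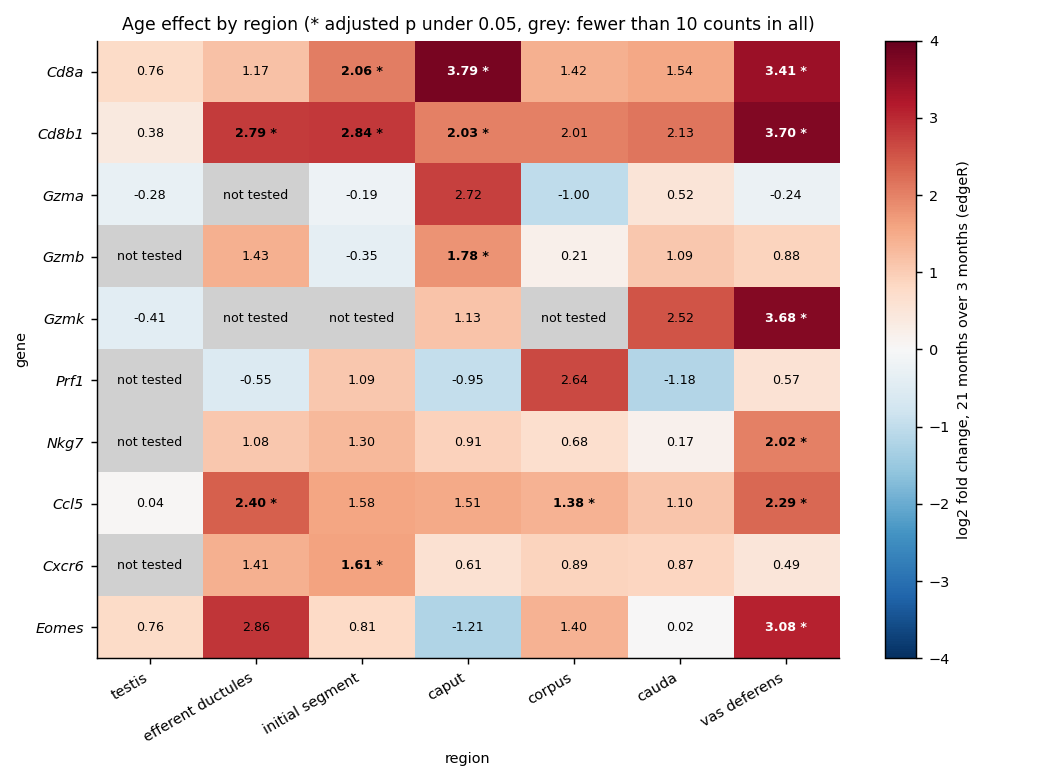
The log2 fold change of 21 over 3 months fitted by edgeR for each gene (rows) in each region (columns), red for higher and blue for lower at 21 months. Asterisks mark the 15 combinations with an adjusted p under 0.05, and grey cells were not tested. Values for Gzmk in the cauda and vas deferens and for Prf1 in the corpus rest on 2 or 3 counts at 3 months.

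The co-receptor gene Cd8a rose with age in the vas deferens, caput and initial segment. In the vas deferens its counts were 3, 5, 11 and 10 in the young libraries and 75, 33, 54 and 144 in the aged ones. Mean levels were 0.376 ± 0.175 and 4.28 ± 2.82 CPM (SD, n = 4), 11.4-fold higher with no overlap, and the fitted log2 fold change was 3.41 (SE 0.54, edgeR adjusted p = 0.0022). Cd8a had its largest fitted change in the caput. Counts there went from 4, 1, 2 and 2 to 31, 44, 53 and 30, and means from 0.148 ± 0.0504 to 2.22 ± 0.550 CPM, with a log2 fold change of 3.79 (SE 0.39, edgeR adjusted p = 0.000343). In the initial segment the counts were 1, 5, 3 and 4 against 10, 12, 14 and 13, and the log2 fold change was 2.06 (SE 0.46, edgeR adjusted p = 0.0152). These 3 rises were called under every alternative in which the gene was tested. In the other regions Cd8a did not pass the adjusted threshold. The corpus (26 counts against 65 over the 4 libraries, log2 fold change 1.42, adjusted p = 0.0661) and the cauda (57 against 155, 1.54, 0.197, and 1.96 and 0.0837 without replicate 3 of 3 months) had no overlap between the ages. The efferent ductules (20 against 31, 1.17, 0.194) and the testis (9 against 16, 0.76, 0.793) overlapped. Both in the caput and in the vas deferens, the edgeR fit of all 56 libraries put the age effect on Cd8a above the mean of the other 6 regions. The difference was 2.12 on the log2 scale in the caput (SE 0.60, adjusted p = 0.0209, where 3.93% of genes were called as having a more positive effect) and 1.71 in the vas deferens (SE 0.49, adjusted p = 0.0207, 6.51% of genes). Leaving out the libraries of 1 replicate number at a time, each difference was called for 1 of the 4 numbers (adjusted p up to 0.216 and 0.289), and without TMM scaling the one in the vas deferens had an adjusted p = 0.0558.

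Cd8b1, which encodes the other chain, rose in 4 regions. Its counts in the vas deferens were 0, 4, 4 and 5 at 3 months and 51, 23, 35 and 64 at 21 months, 0.173 ± 0.118 against 2.41 ± 1.08 CPM, with no overlap. This was 13.9-fold, with a log2 fold change of 3.70 (SE 0.57, edgeR adjusted p = 0.00203). The initial segment (0, 2, 2 and 1 counts against 6, 8, 13 and 7) had a log2 fold change of 2.84 (SE 0.65, edgeR adjusted p = 0.0182). Here too the ages did not overlap, and the call was lost in 1 of the 15 alternatives in which the gene was tested, without replicate 3 of 21 months (adjusted p = 0.0641). The calls in the caput and efferent ductules lay closer to the threshold. In the caput the counts were 2, 0, 3 and 4 against 6, 11, 14 and 15 (log2 fold change 2.03, SE 0.56, edgeR adjusted p = 0.042), and the call was lost without any 1 library except replicate 1 of 3 months. In the efferent ductules they were 2, 0, 2 and 1 against 9, 11, 5 and 2 (2.79, SE 0.75, edgeR adjusted p = 0.0499), and the call was lost without any 1 library except replicate 4 of 21 months. In the corpus 11 counts at 3 months became 40 (2.01, adjusted p = 0.0976), and in the cauda 12 became 50 (2.13, adjusted p = 0.243, or 2.89 and 0.127 without replicate 3 of 3 months).

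The testis was the exception for Cd8b1. Its 4 young libraries held 34, 31, 40 and 38 counts and its 4 aged ones 55, 32, 48 and 57, that is 2.01 ± 0.252 and 2.62 ± 0.640 CPM (SD, n = 4), which overlapped (log2 fold change 0.38, SE 0.20, edgeR adjusted p = 0.549). All 4 young testis libraries were above every young library of the other 6 regions, of which the highest had 0.400 CPM. The age effect in the testis was 2.17 lower on the log2 scale than the mean of the other 6 regions (fitted difference -2.17, SE 0.44, edgeR adjusted p = 0.0217, where 0.0135% of genes were called as having a less positive effect in the testis). The call was lost whichever of the 4 replicate numbers was left out (edgeR adjusted p = 0.111 to 0.263), and without TMM scaling (adjusted p = 0.0629). Cd8a did not share this level, with 3, 5, 0 and 1 counts in the young testis and 1, 6, 4 and 5 in the aged one. Corrected for exon length, the summed counts of the aged testis gave 29.4 times as much Cd8b1 as Cd8a, while the other 6 regions ranged from 0.714 in the caput to 2.14 in the efferent ductules. The 13 genes of the T cell receptor list were uneven in the testis. Trac had 14 counts over the 4 young and 26 over the 4 aged libraries and Trbc1 had 0 and 4, while Cd3d had 219 and 204 and Cd247 had 602 and 654. At 3 months Cd3d was at 3.07 CPM there against 0.0573 to 0.637 in the other 6 regions, and Cd247 at 8.45 against 0.295 to 0.863. The NK receptor gene Ncr1 had 0 counts in all 8 testis libraries.

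**Figure D3:**
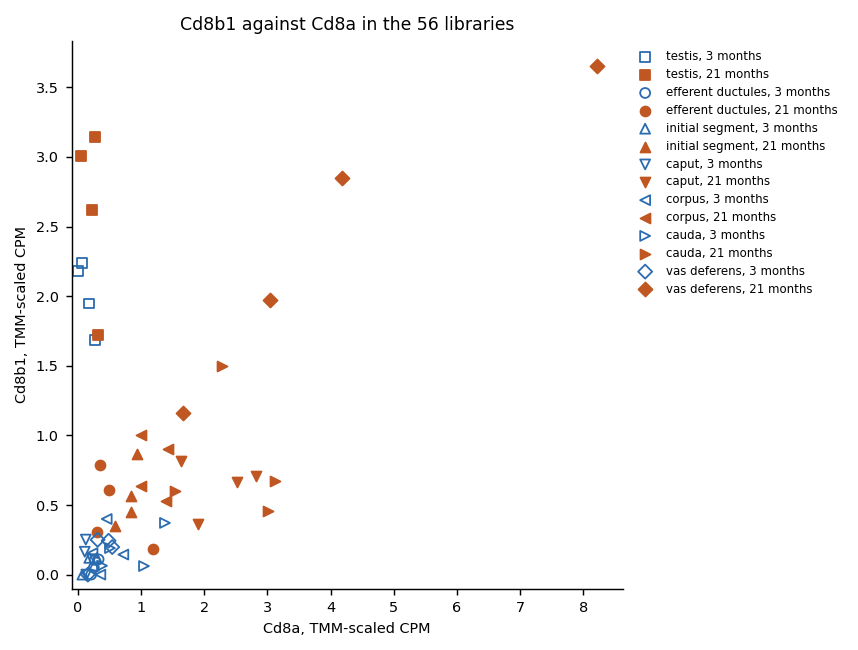
Cd8b1 (y axis) against Cd8a (x axis), both in TMM-scaled CPM, in the 56 libraries, with symbols for regions and colours for ages (3 months open blue, 21 months filled orange). The 8 testis libraries (squares) lie along the y axis at 1.69 to 3.14 CPM of Cd8b1, and the 4 aged libraries of the vas deferens (filled diamonds) include the highest of Cd8a.

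Among the granule genes, the granzyme K gene Gzmk rose in the vas deferens. It had 0, 1, 0 and 2 counts at 3 months and 11, 10, 3 and 20 at 21 months, or 3 against 44 in all. The ratio of these sums was 15.2 (95% exact interval 4.87 to 76.5, counting error only), and the fitted log2 fold change of 3.68 (SE 0.88, edgeR adjusted p = 0.0148) depends on the small prior count of the fit. No library of the young efferent ductules, initial segment or corpus had a count of Gzmk. The aged ones had 3, 8 and 8 counts over 4 libraries, which were too few to test. Against a floor of 3 counts over the young group, the ratio was 2.72 in the initial segment and 2.92 in the corpus. These ratios leave out the counting error of the aged counts. In the cauda 2 counts, both from replicate 3 of 3 months, became 13 (ratio 6.98, 95% exact interval 1.58 to 63.7, adjusted p = 0.424, or 0.258 without that library), in the caput 6 became 18 (adjusted p = 0.504) and in the testis 22 became 17 (adjusted p = 0.865). The annotated span of Gzmk holds Esm1 on the opposite strand, a gene of endothelial cells, which rose in the vas deferens as well (1 count over 4 young libraries and 25 over 4 aged ones). The strand setting of the counting is not given in the sources used here, so the share of Esm1 reads in the Gzmk counts was not tested.

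The granzyme B gene Gzmb rose in the caput. Its counts were 10, 10, 12 and 5 at 3 months and 36, 39, 43 and 47 at 21 months, 0.716 ± 0.439 against 2.33 ± 0.243 CPM. The 4 aged libraries were all above the young ones, 3.25-fold on average, with a log2 fold change of 1.78 (SE 0.37, edgeR adjusted p = 0.0131), and the call held under all 16 alternatives. At 21 months the caput was the region with the highest mean of Gzmb. In the cauda the gene went from 5, 3, 56 and 1 counts to 19, 34, 31 and 42 (log2 fold change 1.09, adjusted p = 0.66), and without replicate 3 of 3 months the change was 3.40 with an edgeR adjusted p = 0.019. The efferent ductules (12 counts against 24, log2 fold change 1.43, adjusted p = 0.129) had no overlap but were not called. The values were -0.35 in the initial segment (adjusted p = 0.767), 0.21 in the corpus (0.882) and 0.88 in the vas deferens (0.324), with overlapping ages in each.

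Gzma and Prf1 were called in no region. Granzyme A is a tryptase, and its gene came nearest in the caput, with 0, 2, 2 and 1 counts at 3 months and 4, 18, 17 and 6 at 21 months. In CPM the ages overlapped, and the log2 fold change was 2.72 (SE 0.81, edgeR adjusted p = 0.0545). The age effect there exceeded the mean of the other 6 regions by 2.86 on the log2 scale (SE 0.92, edgeR adjusted p = 0.0447). For Gzma the interaction over all 7 regions was not called (adjusted p = 0.217), and the caput difference was lost whichever of the 4 replicate numbers was left out (adjusted p = 0.0611 to 0.299). In the vas deferens Gzma had 20, 6, 12 and 9 counts in young and 16, 4, 3 and 16 in aged libraries, a log2 fold change of -0.24 (adjusted p = 0.816). For Prf1 the corpus had 2, 0, 0 and 0 counts against 3, 4, 3 and 4, without overlap (ratio of sums 7.66, 95% exact interval 1.76 to 69.4, adjusted p = 0.176). The vas deferens had 9, 5, 8 and 15 counts of Prf1 against 17, 9, 7 and 21 (log2 fold change 0.57, adjusted p = 0.429). The difference between these genes and the members called in the vas deferens was not tested.

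Nkg7 rose in the vas deferens alone among the 6 regions where it was tested. It had 8, 13, 14 and 9 counts at 3 months and 46, 40, 31 and 63 at 21 months. Means were 0.592 ± 0.193 and 2.48 ± 0.818 CPM, 4.19-fold, with no overlap and a log2 fold change of 2.02 (SE 0.33, edgeR adjusted p = 0.00278). The caput (32 counts against 71) and corpus (34 against 49) had no overlap either but were not called (log2 fold changes 0.91 and 0.68, adjusted p = 0.277 and 0.422). In the 56-library fit the age effect on Nkg7 was not shown to differ between regions.

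Ccl5 rose in the vas deferens, efferent ductules and corpus. This chemokine gene had 20, 15, 16 and 21 counts in the young vas deferens and 93, 74, 45 and 140 in the aged one, 0.952 ± 0.118 against 4.86 ± 2.35 CPM. The aged libraries all lay above the young ones, 5.11-fold on average, with a log2 fold change of 2.29 (SE 0.36, edgeR adjusted p = 0.00216). In the efferent ductules 3, 6, 5 and 5 counts stood against 22, 31, 19 and 3 (log2 fold change 2.40, SE 0.54, edgeR adjusted p = 0.0286). There, replicate 4 of 21 months lay within the young range, and the call was lost without any 1 of the young libraries or without replicate 2 of 21 months. In the corpus 7, 12, 16 and 11 counts became 18, 24, 31 and 35 (1.38, SE 0.35, edgeR adjusted p = 0.0414), and the call was lost without any 1 library except replicate 1 of 21 months. Log2 fold changes of 1.58 in the initial segment, 1.51 in the caput and 1.10 in the cauda had adjusted p = 0.136, 0.0658 and 0.343, and the cauda had 1.59 and 0.0774 without replicate 3 of 3 months. In the testis Ccl5 had 34 counts at 3 months and 36 at 21 months (log2 fold change 0.04, adjusted p = 0.991).

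The receptor gene Cxcr6 rose in the initial segment, from 12, 6, 5 and 10 counts to 15, 28, 21 and 27. The level was 2.77-fold higher on average, without overlap, and the log2 fold change was 1.61 (SE 0.40, edgeR adjusted p = 0.0272). This call was lost in 7 of 16 alternatives, among them the removal of replicate 2 or 3 of 3 months or of replicate 2, 3 or 4 of 21 months. In the vas deferens Cxcr6 had 24, 25, 24 and 33 counts against 40, 36, 40 and 34 (log2 fold change 0.49, SE 0.21, adjusted p = 0.132), and the ages did not overlap. Cxcr6 lies within the span of Fyco1 on the opposite strand, and no age effect on Fyco1 was called in any region (log2 fold changes -0.28 to 0.17, lowest edgeR adjusted p = 0.099 for Fyco1).

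Eomes, the transcription factor gene, rose in the vas deferens. Its counts were 1, 8, 5 and 3 at 3 months and 27, 20, 37 and 64 at 21 months, 0.237 ± 0.193 against 2.06 ± 1.15 CPM. With no overlap the level was 8.72-fold higher, and the log2 fold change was 3.08 (SE 0.56, edgeR adjusted p = 0.00448). The age effect exceeded the mean of the other 6 regions by 2.36 on the log2 scale (SE 0.69, edgeR adjusted p = 0.0224), and this held for 1 of the 4 replicate numbers left out (adjusted p = 0.0263 to 0.265). In the efferent ductules 3, 3, 0 and 1 counts became 18, 10, 6 and 3, and the log2 fold change of 2.86 (SE 0.83) had an adjusted p = 0.0621. In the caput the aged libraries had 1, 1, 2 and 3 counts and the young ones 1, 5, 4 and 2 (log2 fold change -1.21, adjusted p = 0.418). The antisense gene Gm33460 overlaps Eomes and had at most 4 counts in a vas deferens library. Like Cd8b1, Eomes was well detected in the testis, with 23, 21, 10 and 9 counts at 3 months and 22, 22, 35 and 31 at 21 months (log2 fold change 0.76, adjusted p = 0.344).

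In the test of an interaction of age and region over all 56 libraries, 4 members had an adjusted p under 0.05, Cd8b1 (edgeR adjusted p = 0.00283), Cd8a (0.00571), Eomes (0.014) and Gzmk (0.0246), where 20.2% of all genes did. For Gzmk, 3 of the regions had no young count, so its age effect there could not be estimated and its p is not read as a difference. The other 6 members did not pass this test. Of 70 comparisons of 1 region with the mean of the other 6, the 5 given above were called (3.26% of all such tests), against 0 to 7 with libraries left out and 3 without TMM scaling. The count of 4 interactions, Gzmk included, rests on few libraries, since 1 member had an interaction without the libraries numbered 1 or without those numbered 4, 3 had one without those numbered 2 or 3, and 5 without replicate 3 of the young cauda.

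To describe where along the tract these genes are expressed, the regions were compared within each age. All 10 members differed among the 7 regions at 3 months and at 21 months, as did 91.2% and 91.3% of all genes. Over the 21 pairs of regions, 79 of 210 comparisons were called at 3 months (49.6% for all genes) and 109 of 210 at 21 months (48.5%). The summed level of the members was lowest in the efferent ductules at 3 months (1.88 CPM) and highest in the cauda (7.68 CPM). Without replicate 3 the cauda had 4.30 CPM, below the 5.30 CPM of the vas deferens. At 21 months it was lowest in the testis (5.31 CPM) and highest in the vas deferens (20.9 CPM), followed by the cauda (14.4 CPM) and the caput (9.92 CPM).

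At 3 months the cauda had the highest mean for 6 members (Cd8a, Gzmb, Prf1, Nkg7, Ccl5 and Cxcr6), the testis for 3 (Cd8b1, Gzmk and Eomes) and the vas deferens for Gzma. Without replicate 3 of the cauda, the cauda kept 3 of these (Cd8a, Nkg7 and Ccl5), while Prf1 and Cxcr6 were highest in the vas deferens and Gzmb in the caput. Neighbours in these orders are by construction the regions with the closest means, and the share of called steps over all genes was not computed. Of 60 such steps 4 were called. These were Cd8b1 in the testis above the corpus (log2 difference 3.31, edgeR adjusted p = 3.49e-06), Gzma in the cauda above the initial segment (1.88, adjusted p = 0.0477, but 0.69 and 0.538 without replicate 3 of the cauda), and Nkg7 (adjusted p = 0.00675) and Cxcr6 (3.02, 0.00319) in the efferent ductules above the testis. For Nkg7 this step was 18 counts against 1 (ratio 16.9, 95% exact interval 2.67 to 704, counting error only). The other 56 steps did not pass the threshold, and without replicate 3 of the cauda 8 steps were called.

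By 21 months the vas deferens had the highest mean for 6 members, Cd8a, Gzmk, Prf1, Nkg7, Ccl5 and Eomes. The cauda was highest for Gzma and Cxcr6, the testis for Cd8b1 and the caput for Gzmb. Of 60 neighbouring steps 10 were called, again without a share over all genes. The vas deferens stood above the cauda in 2 of them, for Cd8b1 (log2 difference 1.66, edgeR adjusted p = 0.00105) and Nkg7 (1.07, adjusted p = 0.0191). The step from the vas deferens to the cauda was not called for Cd8a, Prf1 or Ccl5, which come in the same order. For Eomes and Gzmk other regions lay between the cauda and the vas deferens. The pair was called for both, with the cauda lower (cauda minus vas deferens -1.87, edgeR adjusted p = 0.0019, and -1.61, 0.0391). Gzmb was higher in the cauda than in the vas deferens (1.17, adjusted p = 0.018), and the step from the caput down to the cauda was not called for it. Gzma was higher in the vas deferens than in the initial segment (2.09, adjusted p = 0.0255). The other 6 called steps set the testis, as the lowest region, below its neighbour for Cd8a, Gzmb, Prf1, Nkg7, Ccl5 and Cxcr6. Log2 differences ranged from 1.43 for Ccl5 to 4.17 for Cxcr6 among the 4 of these with more than 3 counts in the testis. Gzmb had 24 counts against 1 (ratio 31.0, 95% exact interval 5.06 to 1280), and Prf1 had 8 against 2 (ratio 4.76, 0.95 to 46.0).

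Replicate 3 of the young cauda was the highest of its group for all 10 members. Its Gzmb level was 2.97 CPM against 0.0638 to 0.308 CPM in the other 3 libraries, its Eomes level 1.64 against 0.127 to 0.246, and its Prf1 level 1.86 against 0.254 to 0.493. For Cxcr6 it had 64 counts where the others had 15, 18 and 6. The same library had 48 counts of the NK receptor gene Ncr1 against 11, 10 and 11, 28 counts of Trac against 3, 3 and 4, and 2345 counts of the macrophage gene Adgre1 against 277, 242 and 253. Its NK list (9 genes) summed to 9.12 CPM against 1.66 at the lowest, and its T cell receptor list (13 genes) to 30.2 against 9.66. The part of other immune cells in the member levels of this library was not tested. Without it, the log2 fold changes of age in the cauda that were not given above moved as follows. Prf1 went from -1.18 (edgeR adjusted p = 0.555) to -0.12 (0.944), Gzma from 0.52 (0.82) to 1.72 (0.452) and Cxcr6 from 0.87 (0.606) to 1.79 (0.125). Eomes went from 0.02 (edgeR adjusted p = 0.992) to 1.65 (0.32) and Nkg7 from 0.17 (0.909) to 0.86 (0.506).

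**Figure D4:**
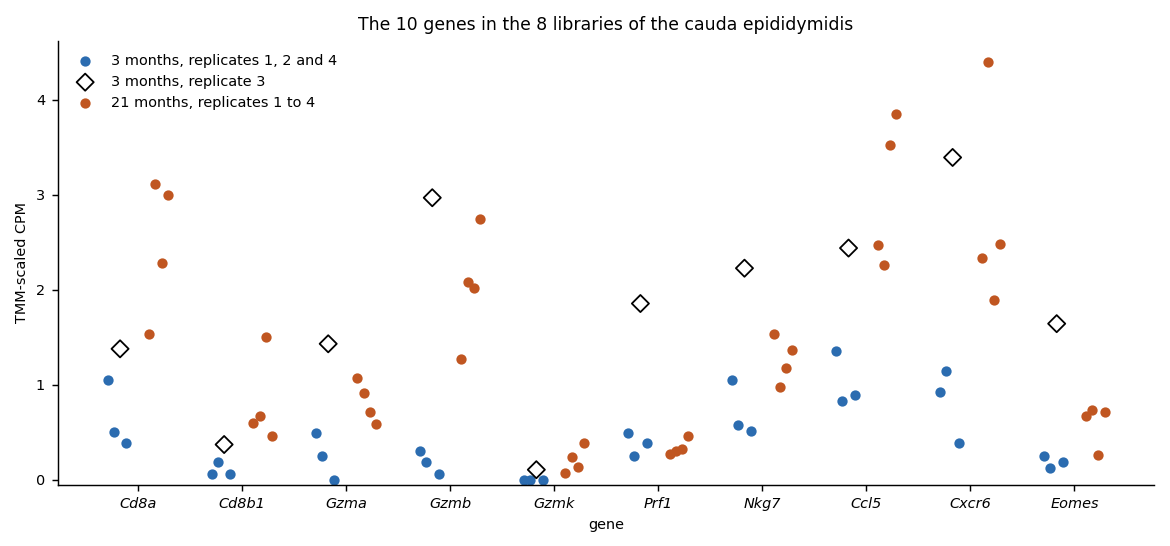
TMM-scaled CPM (y axis) of the 10 genes (x axis) in the 8 libraries of the cauda, with replicate 3 of 3 months as an open diamond, the other 3 young libraries in blue and the 4 aged libraries in orange. The diamond is the highest young library for every gene and lies above all aged libraries for Gzma, Gzmb, Prf1, Nkg7 and Eomes.

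In the vas deferens, where 6 members rose, other lymphocyte genes rose with them, against 11.4% of all genes that rose and 8.47% that fell. All 13 genes of the T cell receptor complex list rose, with a median log2 fold change of 2.75, and their summed level went from 8.46 to 12.1 CPM in the young libraries to 34.0 to 84.2 in the aged ones. Cd3e, a chain of the receptor, had 15, 19, 32 and 26 counts at 3 months and 107, 80, 76 and 177 at 21 months (log2 fold change 2.27, SE 0.34, edgeR adjusted p = 0.00183). Trac, the constant segment of its alpha chain, rose by 3.33 on the log2 scale (SE 0.45, adjusted p = 0.00113). Helper and regulatory T cell genes rose for 5 of 7 (Cd4, Cd40lg, Ctla4, Foxp3 and Il2ra), with Cd4 at 1.21 (adjusted p = 0.0491) and Foxp3, the factor of regulatory T cells, at 3.42 (adjusted p = 0.0114). Gamma delta T cell genes rose for 3 of 8, among them Trdc at 1.76 (adjusted p = 0.00652). Without replicate 4 of 21 months the T cell receptor list still had 13 of 13 (median log2 fold change 2.34), and the helper list 4 of 7, Cd4 being lost.

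Markers of other cells in the same libraries moved unevenly. The region's own gene Akr1b7 fell from 20750 to 15100 CPM (log2 fold change -0.52, edgeR adjusted p = 0.0466) with no overlap, and so did Aqp1 (-0.69, adjusted p = 0.000802), while Adam28 (1.85, adjusted p = 0.00584) and Spint3 (1.98, adjusted p = 0.0137) rose. All 8 B and plasma cell genes rose, from a sum of 18.5 to 37.3 CPM to 781 to 1628 CPM. Of 7 genes of lymph node stroma, 4 were tested and 3 rose (Cr2, Cxcl13 and Fcer2a), with the sum going from 5.31 to 7.50 CPM to 16.4 to 82.8 CPM. The lymph node chemokine genes Ccl19 and Ccl21a had 0 counts in all 8 libraries. Neither had enough counts to be tested in any of the 7 regions, so these zeros are not read as absence. Glycam1 of the same list had 0 young counts and 8, 3, 3 and 0 aged ones (edgeR adjusted p = 0.0644), and it was called without replicate 4 of 21 months, which made 4 of 7. Macrophage genes rose for 4 of 9 (C1qa, C1qc, Cd14 and Cd68), with C1qa at 0.59 (adjusted p = 0.0313) and Adgre1 at -0.13 (adjusted p = 0.588). Of the 9 NK genes none rose and Ncr1 fell, from 38, 34, 25 and 33 counts to 18, 15, 14 and 7 (log2 fold change -1.29, SE 0.32, edgeR adjusted p = 0.0167). Mast cell genes fell for 3 of 7, with Cpa3 at -1.06 (adjusted p = 0.0408). No adipocyte or red blood cell gene was called with all 8 libraries, and the median log2 fold changes of these lists were -1.21 and -0.83. Without replicate 4 of 21 months these medians were -0.82 and -0.46, and the adipocyte gene Lep was called as higher. For cDC1 dendritic cells 1 of 7 genes rose, Irf8, with Xcr1 at 0.73 (adjusted p = 0.222). For neutrophils 1 of 6 rose, S100a8 (adjusted p = 0.0383), which was the only gene of that list with enough counts to test here. These counts stand beside the 11.4% and 8.47% of all genes that rose and fell in this region. Without replicate 4 of 21 months B and plasma cell genes still rose for 8 of 8, while S100a8 and Cd68 were not called and 3 of 9 NK genes fell. The part of each of these cell types in the member levels was not tested.

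**Figure D5:**
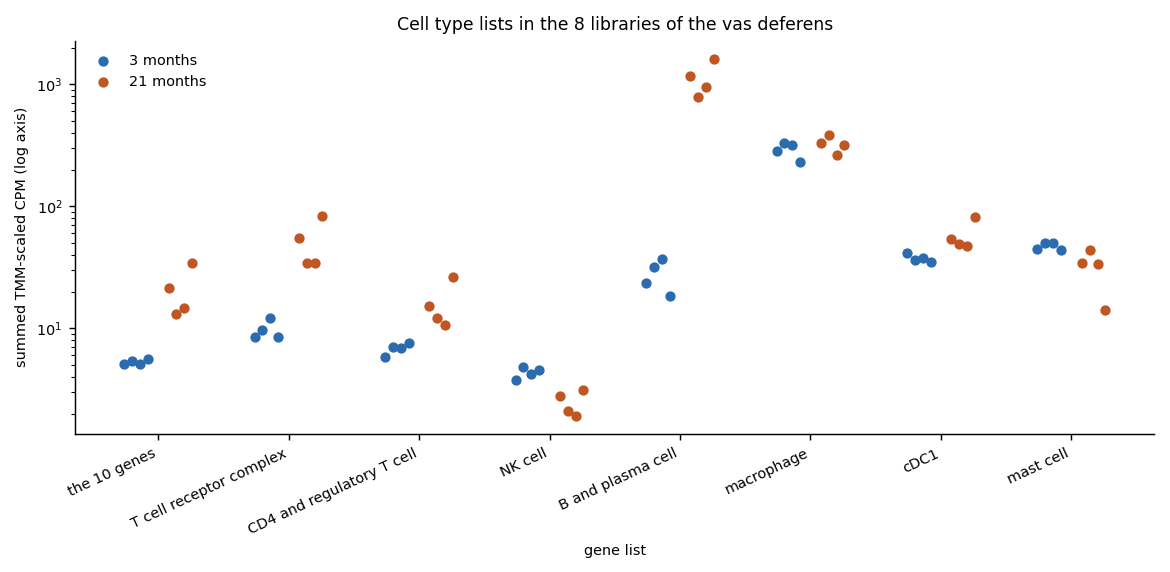
Summed TMM-scaled CPM (y axis, log scale) of the 10 genes and of 7 cell type lists (x axis) in the 8 libraries of the vas deferens, with 3 months in blue and 21 months in orange. The 10 genes sum to a mean of 5.30 CPM in the young and 13.2 to 34.2 CPM in the aged libraries, the T and B cell lists rise without overlap, and the NK list is lower at 21 months.

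The same lists were counted in the other regions, where rises and falls were called for 4% and 2.98% of all genes in the efferent ductules. They were called for 3.35% and 3.01% (initial segment), 3.09% and 5.05% (caput) and 1.5% and 1.47% (corpus). T cell receptor genes rose for 7 of 13 (efferent ductules), 5 (initial segment), 4 (caput) and 1 (corpus), making with the vas deferens 30 of 91 gene and region combinations in all. Their median log2 fold change was 1.44, 1.45 and 1.34 in the first 3 of these regions, where that of all genes lay between -0.04 and -0.01. Among NK genes, Klrb1c rose in the efferent ductules (log2 fold change 4.27, adjusted p = 0.0485) and caput (0.98, adjusted p = 0.0467), whereas Ncr1 had log2 fold changes of -0.01 (adjusted p = 0.997) and 0.12 (adjusted p = 0.934) there. In the efferent ductules the counts of Klrb1c were 3, 7, 6 and 4 against 2, 204, 135 and 1. Adam28, highest in the initial segment, went from 3, 0, 0 and 0 counts to 2, 2465, 1121 and 0 in the same libraries (edgeR adjusted p = 0.0276), so replicates 2 and 3 of 21 months were the high ones for both genes. The part of initial segment RNA in these 2 libraries was not tested. The NK list summed to 290.8 to 377.8 CPM in young initial segment libraries and 13.65 to 34.84 CPM in young caput ones. No young library of another region exceeded 9.12 CPM for this list. Klrb1c made up the 2 rises called in the list over the 7 regions, and whether they came from NK cells was not tested. Macrophage genes rose for 6 of 9 (efferent ductules), 4 (initial segment) and 3 (caput), and in the caput Adgre1 had a log2 fold change of 1.02 (adjusted p = 0.00335). B and plasma cell genes rose for 4 of 8 (efferent ductules and corpus alike), 3 (initial segment) and 2 (caput, and cauda as well). In the testis, where 0 members were called, Igkc of this list (0 counts over the young libraries and 93 over the aged ones, edgeR adjusted p = 0.0329) and the macrophage gene Cd68 (log2 fold change 1.18, adjusted p = 0.00168) rose. Red blood cell genes rose for 4 of 5 in the efferent ductules and corpus, with Hba-a1 at 1.84 (adjusted p = 0.0133) and 1.68 (adjusted p = 0.012). Hba-a1 also rose in the caput (1.64, adjusted p = 0.0497), and the part of blood in the member levels was not tested. Adipocyte genes fell for 2 of 6 in the efferent ductules and in the corpus and for 1 in the initial segment, and no call was made for Adipoq (lowest edgeR adjusted p = 0.108). Over the 7 regions together, 3.31% of all tests were rises and 2.96% falls. With untested combinations left out, rises and falls were called in 10 and 1 of 41 tests of the helper and regulatory T cell list. They were called in 7 and 0 of 44 tests of the gamma delta list, 2 and 1 of 41 of the NK list, and 2 and 1 of 48 of the cDC1 list. The same counts were 3 and 3 of 38 for mast cells, 18 and 0 of 63 for macrophages, 24 and 0 of 53 for B and plasma cells, and 1 and 0 of 11 for neutrophils. They were 9 and 0 of 35 for red blood cells, 7 and 0 of 23 for lymph node stroma and 0 and 5 of 42 for adipocytes. Foxp3 rose in the initial segment (log2 fold change 3.40, edgeR adjusted p = 0.019) and fell in the caput (-3.70, edgeR adjusted p = 0.0312).

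Further genes of the killing pathway were described beside the members. Of the 22 genes of the cytotoxic effector list, 18 were tested in the vas deferens, 15 in the caput and 16 in the initial segment. Of these 6, 1 and 2 rose (11.4%, 3.09% and 3.35% of all genes). Serpinb9, which encodes an inhibitor of granzyme B, fell in the corpus (log2 fold change -0.59, edgeR adjusted p = 0.0311), as 1.47% of genes did. In the vas deferens the median log2 fold change of this list was 0.42, against 0.02 for all genes, and it was 0.18 without replicate 4 of 21 months, with the same 6 genes called. Ctsw, a cathepsin of cytotoxic cells, rose in the vas deferens from 14, 7, 15 and 24 counts to 32, 30, 39 and 43 (log2 fold change 1.27, edgeR adjusted p = 0.0168) and in the caput from 13, 4, 12 and 7 to 35, 33, 49 and 25 (1.68, edgeR adjusted p = 0.00707). Cst7, a cystatin that restrains granule proteases, rose in the initial segment (2.30, adjusted p = 0.00873) and in the vas deferens (1.56, adjusted p = 0.0174). The adhesion gene Crtam (3.18, adjusted p = 0.0113), the granule fusion gene Unc13d (1.36, adjusted p = 0.0125) and the cytokine gene Tnf (1.82, adjusted p = 0.0151) rose in the vas deferens too. In the testis Crtam had 40.9 ± 2.26 CPM at 3 months. The other genes called were Srgn in the vas deferens and Fasl in the initial segment.

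Of the 24 genes listed for the state of CD8 T cells, 7 rose in the vas deferens (Cd69, Cxcr3, Il2rb, Pdcd1, Runx3, Tigit and Tox), 2 in the initial segment (Havcr2 and Slamf7), 1 in the caput (Itgae) and 1 in the corpus (Tox). Of all genes 11.4%, 3.35%, 3.09% and 1.5% rose in these regions. Itga1, an integrin gene that many cell types use, fell in the efferent ductules (-0.62, edgeR adjusted p = 0.0174), initial segment (-0.32, 0.0372) and corpus (-0.70, 0.00611), and Klrd1 fell in the vas deferens (falls of 2.98%, 3.01%, 1.47% and 8.47% of all genes). The median log2 fold change of the list in the vas deferens was 0.74, and without replicate 4 of 21 months Il2rb was not called there. Runx3, the factor that fixes the CD8 lineage, had 31, 20, 21 and 37 counts in the young vas deferens and 135, 96, 86 and 174 in the aged one (log2 fold change 2.18, SE 0.30, edgeR adjusted p = 0.00133). The inhibitory receptor genes Pdcd1 (2, 0, 4 and 0 counts against 18, 14, 8 and 19) and Tigit (3, 3, 5 and 2 against 8, 15, 10 and 22) rose there by 3.21 (adjusted p = 0.0119) and 2.03 (adjusted p = 0.0154) on the log2 scale. Tox, a factor of exhausted T cells that other cells also express, rose by 0.90 in the vas deferens (adjusted p = 0.0015) and 0.56 in the corpus (edgeR adjusted p = 0.0388, log2 scale). Itgae, the integrin that ties lymphocytes to epithelium, rose by 0.80 in the caput (adjusted p = 0.00515), from 29.6 to 53.5 CPM.

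The ratio of co-receptor to T cell receptor counts does not depend on the scaling of the libraries. It could be tested for Cd8a to Cd3e in 4 regions, where each gene had at least 20 counts at each age. In the vas deferens the mean log2 ratio went from -1.70 ± 0.360 to -0.64 ± 0.427 (SD, n = 4), a difference of 1.06, and in the cauda from -1.50 ± 0.412 to -0.57 ± 0.333, a difference of 0.92. Every aged ratio lay above every young one in both, which gives the smallest p that the exact two-sided permutation test allows with 4 against 4, 0.0286, or 0.0571 after adjustment over the 4 tests. Without replicate 3 of the young cauda the difference there was 0.933, again with no overlap, and the exact permutation p of 0.0571 is the smallest that 3 against 4 allows. In the corpus the difference was 0.60 (exact permutation p = 0.114) and in the efferent ductules -0.40 (exact permutation p = 0.6). The counts of Cd8a in the young caput were too few for this test. Summed over the 4 libraries, they were 9 against 79 of Cd3e at 3 months and 158 against 191 at 21 months.

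Genes with a pattern like that of the members were looked for over the 14 groups of region and age, among 24948 genes with a mean of at least 1 CPM in 1 group or more. The Pearson correlation with the mean standardised level of the 10 members was highest for Themis (0.926), Gimap7 (0.917), Trac (0.907), Ly75 (0.906) and Cd2 (0.900), given as a description of 14 points that share mice and libraries. The gene most like each member was Themis for Cd8a (0.958), Slamf1 for Cd8b1 (0.968), Gm42480 for Gzma (0.904), Gm42851 for Gzmb (0.925), Ralyl for Gzmk (0.951), Lrrc14b for Prf1 (0.909), Gimap3 for Nkg7 (0.958), Trbc1 for Ccl5 (0.943), AW112010 for Cxcr6 (0.930) and Il9r for Eomes (0.932). Within the group of members, Cd8b1 correlated at 0.308 with the mean of the other 9 over the 14 groups and at 0.856 over the 12 groups without the testis. For Eomes the same values were 0.411 and 0.747. Not all members correlated more closely without the testis, with 0.533 and 0.523 for Gzmb, 0.584 and 0.561 for Prf1, and 0.676 and 0.653 for Gzma.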

How the data were processed

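The series holds 56 RNA-seq libraries from 7 regions of the tract of male C57BL/6 mice, 4 for each region and age, taken by the study from 4 mice per age. Libraries were made from total RNA by a stranded kit and read from both ends, and the authors aligned the reads with HISAT2 to GRCm38 (mm10). The deposited values are raw counts per gene, not normalised. HTSeq and cutadapt are named in the submitters' processing notes, and their versions, the strand setting and the annotation release are not given in the sources used here.

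Counts were analysed with R 4.3.3, using edgeR 4.0.16 (quasi-likelihood F-test, TMM scaling, a floor of 10 counts per gene over the libraries fitted, Benjamini-Hochberg adjustment over all genes tested) in the 8 libraries of a region, in the 28 of an age, or in all 56. DESeq2 1.42.0 was an alternative. Others were DESeq2 size factors, no TMM scaling, other filters on low counts, a replicate block, the removal of Gm42418, all 56 libraries in one fit, the study's thresholds and leaving out each library. CPM values were scaled over the 56 libraries. Ratios were compared by exact permutation (scipy 1.17.1) of log2 count ratios with 0.5 added. Regions of one age came from the same mice, which the fits do not model. The scripts were tested on simulated data. Intervals cover counting error only.

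The members and the gene lists were chosen with earlier results of these data known. Named were all 10 members, the 6 genes of the effector and CD8 state lists called in most regions, the first gene of each cell type list with Trac, Cd4, Foxp3 and C1qa, and the genes most alike the members. Klrb1c, Igkc, Cd68, Cd3d, Cd247, Trbc1, Glycam1, Adam28, Irf8, Esm1, Fyco1 and the further genes given only by name were chosen after their values were seen. So were the fits across regions without replicate 3 of the young cauda and the list counts without replicate 4 of the aged vas deferens. The values of 1 gene of the lists are not reported here.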

Additional observations from a re-analysis of the deposited data

Results flagged for a closer look

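Among 111 groups of 4 libraries with a count above 3 for a member, 8 held a library far from the other 3 by Dixon's test, and chance flags about 1 in 20 groups. Of these 8, 3 were replicate 3 of the young cauda, with Gzmb at 2.97 CPM, Prf1 at 1.856 CPM and Eomes at 1.644 CPM. In the aged initial segment Gzma was highest in replicate 4 (0.2577 CPM, 4 counts), and in the aged testis Gzmk was highest in replicate 4 (0.2756 CPM, 5 counts). Nkg7 was highest in replicate 3 of the aged corpus (1.462 CPM). Ccl5 was lowest in replicate 1 of the young corpus (0.4986 CPM) and Eomes in replicate 3 of the aged cauda (0.2609 CPM).

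An adjusted p under 0.05 in edgeR's interaction test of age and region was found for Cd8b1 (adjusted p = 0.00283), Cd8a (0.00571), Eomes (0.014) and Gzmk (0.0246), but Gzmk had no young count in 3 regions, so its value is not read as a difference. Against the mean of the other 6 regions, the age effect was called as different for Cd8b1 in the testis (edgeR adjusted p = 0.0217), for Cd8a in the vas deferens (0.0207) and caput (0.0209), for Eomes in the vas deferens (0.0224) and for Gzma in the caput (0.0447). With 1 replicate number left out at a time, the calls for Cd8b1 and Gzma held in 0 of 4 sets. Each of the others held in 1 of 4.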

How the results depend on the processing

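The 6 rises in the vas deferens were called under every alternative in which the gene was tested. The count of members called in the efferent ductules (2) was 0 with filterByExpr, 0 with the replicate block, 1 with no filter, 1 without Gm42418, 6 by the study's thresholds and 0 to 2 with a library left out. In the initial segment (3) it was 1 with filterByExpr and 1 to 3 with a library left out. In the caput (3) it was 5 with DESeq2, without TMM scaling, with no filter and by the study's thresholds, and 2 to 4 with a library left out. In the corpus (1) it was 0 without TMM scaling, 2 with filterByExpr, 3 with no filter, 0 with all 56 libraries in one fit, 5 by the study's thresholds and 0 to 1 with a library left out. In the cauda (0) it was 1 with DESeq2, 2 with all 56 libraries, 4 by the study's thresholds and 0 to 1 with a library left out, and in the testis (0) it was 1 by the study's thresholds.

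At 3 months the neighbouring steps called (4) were 7 without TMM scaling and 2 to 8 with libraries left out, 8 being without replicate 3 of the cauda. With filterByExpr 6 members differed among regions and 45 pairs were called, and the 79 pairs became 61 to 73 with libraries left out. At 21 months the steps (10) were 16 without TMM scaling and 5 to 8 with libraries left out, the 109 pairs 90 to 100, and the 10 members 9 to 10. The members with an interaction (4) were 1 to 5, and the regions that differed from the others (5) were 3 without TMM scaling and 0 to 7. Without TMM scaling the median change of all genes shifted by 0.20 in the caput, -0.16 in the corpus and -0.33 in the efferent ductules (log2).

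Some small log2 changes turned sign. Eomes in the cauda (0.0238) was -0.0003 without TMM scaling and -0.2867 to 1.6517 with a library left out. With a library left out, Gzma was -0.438 to 0.1062 in the testis, -0.6116 to 0.1676 in the vas deferens and -0.9159 to 0.1912 in the initial segment. Gzmb ranged from -0.084 to 0.4718 (corpus) and from -0.6073 to 0.0262 (initial segment). Nkg7 was -0.0705 to 0.8581 in the cauda and Ccl5 -0.2683 to 0.4688 in the testis. The cause was not tested.

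The sources do not say that a replicate number marks a mouse. Deviations of same-numbered libraries of the 2 ages correlated at 0.0209 on average (-0.190 to 0.201), and those of 2 regions of an age at 0.0163 (-0.296 to 0.317), so the number was not used as a pairing. In 1 of the 42 pairs of regions, corpus and cauda at 3 months, all 4 same-numbered correlations were over 0.1 (0.102 to 0.177), and there the replicate block left 1 of 2 members called (Gzma, adjusted p = 0.0485, had 0.0712). With the replicate block 0 members were called in the efferent ductules, Cd8b1 in the caput and Cxcr6 in the initial segment were no longer called (edgeR adjusted p = 0.057 and 0.0668), and Gzma in the caput was (0.0354). Counts of 0 to 144 per library limit what can be detected for these genes.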
